A study of Mus musculus with 2 samples.

Results

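Accessible sites inside protein-coding sequence and away from gene starts were examined in the mouse urinary bladder. Peaks of both libraries were merged wherever they shared a base, and autosomal merged sites with a peak from each library were kept. A site was counted as coding when its midpoint lay in a coding (CDS) record of a protein-coding gene in GENCODE M21 and its nearer edge lay more than 1000 bases from every annotated transcript start. The rule gave 352 coding sites of 30840 shared autosomal sites, or 2.55% of the 13826 shared sites away from starts. The comparison set was the 5385 intronic sites chosen by the same distance rule, with their midpoint in a protein-coding gene and in no exon. The rule used peak calls in both libraries, position in CDS and distance to a start, so the distances and CDS shares given here are descriptions. Height, width, footprints and base composition were not part of it.

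The study profiled 1 group by DNase-seq, the whole urinary bladder at an age of 36 days. The mice were males of the strain B6CASTF1/J, and each of the 2 libraries, called replicate 1 and replicate 2, came from its own animal. DNase-seq cuts open chromatin with the nuclease DNase I and sequences the cut ends, so a peak marks DNA that the enzyme could reach. The mice are F1 hybrids, and reads were placed on mm10, which represents C57BL/6J only. The tissue is a mixture of urothelium, smooth muscle, stroma, vessels and nerve, so a site open in few cells and a site weakly open in many cannot be told apart. There was no treated or mutant group, so no contrast between groups was tested.

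Most regulatory DNA lies outside coding sequence, but transcription factors also bind inside exons, where a base can serve the protein and a binding site together. Some coding exons act as enhancers of their own gene or of a neighbour, and others hold sites of CTCF, the zinc finger protein that organises chromatin loops and boundaries. CpG-rich DNA is often free of DNA methylation and open, both at gene starts and in the body of developmental regulators.

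The sequences below show what the coding sites look like, from the highest sites, from urothelial and immediate early regulators and from the 1 repeat. Each is from GRCm38, which has the coordinates of mm10, and is written 5′ to 3′ on the plus strand. Capitals mark bases that lie in a footprint of both libraries, a footprint being a short protected stretch that the authors called inside open chromatin. The sites were picked for display after their values were seen.
Angptl6 site, chr9:20878171-20878470: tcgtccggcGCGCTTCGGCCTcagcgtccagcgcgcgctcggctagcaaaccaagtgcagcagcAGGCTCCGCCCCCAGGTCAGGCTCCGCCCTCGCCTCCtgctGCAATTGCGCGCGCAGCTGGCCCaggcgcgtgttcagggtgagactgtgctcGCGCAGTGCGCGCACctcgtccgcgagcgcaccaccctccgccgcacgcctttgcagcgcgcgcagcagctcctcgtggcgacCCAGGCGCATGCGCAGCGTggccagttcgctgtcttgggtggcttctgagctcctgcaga
Spi1 site, chr2:91115161-91115320: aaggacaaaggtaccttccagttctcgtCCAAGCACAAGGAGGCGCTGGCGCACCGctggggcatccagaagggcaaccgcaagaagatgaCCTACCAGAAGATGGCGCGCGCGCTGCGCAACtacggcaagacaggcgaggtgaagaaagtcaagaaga
Scnn1a site, chr6:125331061-125331260: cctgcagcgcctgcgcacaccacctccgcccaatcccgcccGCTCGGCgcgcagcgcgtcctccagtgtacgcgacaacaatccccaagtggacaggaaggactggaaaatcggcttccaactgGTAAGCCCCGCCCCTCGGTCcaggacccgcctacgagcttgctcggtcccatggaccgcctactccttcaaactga
Hey1 site, chr3:8664621-8664800: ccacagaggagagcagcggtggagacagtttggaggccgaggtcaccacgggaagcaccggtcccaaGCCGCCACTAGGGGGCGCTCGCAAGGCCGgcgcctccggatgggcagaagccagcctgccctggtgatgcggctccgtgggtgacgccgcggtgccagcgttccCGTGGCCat
Elf3 site, chr1:135256401-135256600: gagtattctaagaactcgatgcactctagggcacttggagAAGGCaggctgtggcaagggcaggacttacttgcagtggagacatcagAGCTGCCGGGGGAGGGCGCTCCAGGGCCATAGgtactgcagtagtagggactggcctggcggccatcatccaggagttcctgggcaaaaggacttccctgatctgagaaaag
Pparg site, chr6:115463001-115463285: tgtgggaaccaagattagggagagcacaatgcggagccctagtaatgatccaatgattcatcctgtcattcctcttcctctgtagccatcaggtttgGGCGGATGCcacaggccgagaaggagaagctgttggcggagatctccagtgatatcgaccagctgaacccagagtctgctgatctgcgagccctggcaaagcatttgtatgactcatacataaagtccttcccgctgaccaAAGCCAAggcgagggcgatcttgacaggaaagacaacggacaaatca
Klf4 site, chr4:55530331-55530630: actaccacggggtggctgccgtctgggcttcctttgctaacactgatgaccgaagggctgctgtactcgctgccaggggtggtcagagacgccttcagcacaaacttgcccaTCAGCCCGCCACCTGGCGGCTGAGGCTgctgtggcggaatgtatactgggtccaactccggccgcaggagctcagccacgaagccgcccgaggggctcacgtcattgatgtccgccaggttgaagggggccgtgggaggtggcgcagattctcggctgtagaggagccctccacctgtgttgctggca
Gm11168 site, chr9:3006800-3006920: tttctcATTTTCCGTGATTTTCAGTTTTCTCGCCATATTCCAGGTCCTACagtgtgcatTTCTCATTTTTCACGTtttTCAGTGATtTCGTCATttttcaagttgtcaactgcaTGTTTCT

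The Angptl6 stretch lies whole in the first coding exon and shows the central 300 bases of the site. Footprints of both libraries cover 106 of these bases, including 2 GC boxes, at bases 70 to 75 and 88 to 93 of the printed run. In the Hey1 run the CTCF pattern spans bases 72 to 83, and all 12 of its bases are in footprints of both libraries. The Scnn1a run crosses from an exon into the intron that follows, with 124 of its 200 bases in CDS. The Pparg run holds 2 AP-1 matches, at bases 54 to 60 and 207 to 213, and neither has a base in a footprint of both libraries. The Klf4 run is coding throughout, with 27 bases in footprints of both libraries.

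Coding sequence held more open sites per base than introns did. There were 14.7 coding sites per Mb of the 24.0 Mb of autosomal CDS away from starts, against 6.51 intronic sites per Mb of 827 Mb of intron, a ratio of 2.26. With each library taken alone this ratio had an SD of 0.499 between libraries (n = 2). Site densities here and below were not corrected for mappability, the share of bases where reads can be placed uniquely. The coding sites fell in 335 genes, or 1.84% of the 18254 genes with CDS away from starts. Of these genes, 322 held 1 coding site and 11 held 2, while Zfp503, a zinc finger regulator of development, held 3 and Tchh, the structural protein trichohyalin of hair follicles, held 5. Coding sites lay closer to starts than intronic sites, at a median of 3923 against 8637 bases.

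Genes with a coding site more often held an intronic site as well. The share was 29.9% (exact 95% interval 25.0 to 35.1), against 19.0% of the genes that could hold a coding site. The lengths of CDS and intron in a gene were not taken into account. At their own starts, 58.5% (53.0 to 63.8) had a shared site within 500 bases of a start, against 61.8% of the genes that could hold one and 73.2% of the genes with an intronic site. All such intervals are Clopper-Pearson intervals and cover counting error only. Neighbouring sites share libraries and chromatin, and sites are not replicates.

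Taken over all sites, without matching of base composition, coding sites were about as high as intronic ones. Peak height is a signal that the authors deposited for each peak, and its scale is not stated. The median height of coding sites was 1.38 in replicate 1 and 1.2 in replicate 2, against 1.25 and 1.21 for intronic sites. The ratio was 1.10 in replicate 1 and 0.993 in replicate 2, with a mean of 1.05 ± 0.079 (SD, n = 2), so the libraries fell on opposite sides of 1. Heights of coding sites ran from 0.465 to 6.59 in replicate 1 and from 0.321 to 7.36 in replicate 2. Among all shared autosomal sites, which include the gene starts, the median coding site stood at the 38.5th percentile in replicate 1 and at percentile 34.5 in replicate 2.

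**Figure D1:**
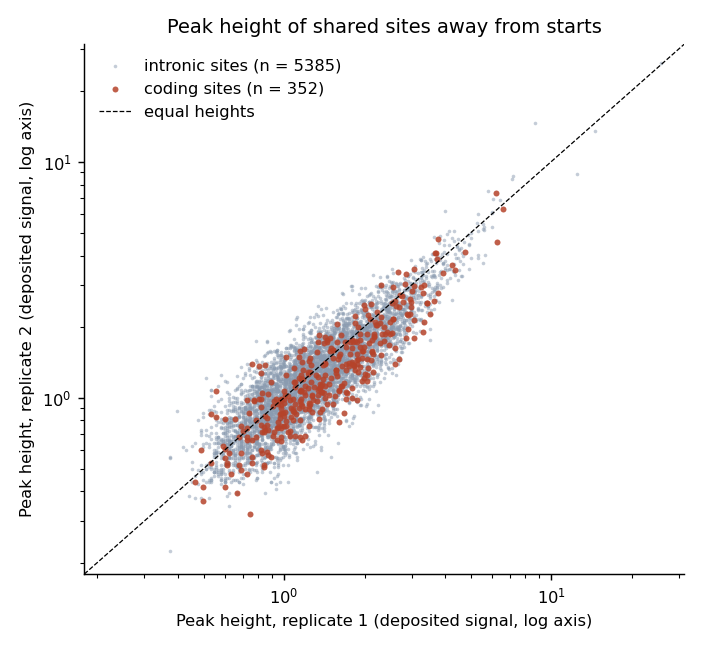
Peak height in replicate 1 (horizontal) and replicate 2 (vertical), both as deposited signal on log axes, for 352 coding sites (red) and 5385 intronic sites (grey), with equal heights dashed. Coding sites span the range of most intronic sites, from 0.465 to 6.59 in replicate 1, and more of them lie below the dashed line than above it.

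Height differed with distance from starts, and was lowest beyond 20 kb in both kinds of site. The 93 coding sites between 1 and 2 kb from a start had median heights of 1.61 and 1.39 in replicates 1 and 2, against 1.35 and 1.27 for intronic sites at that distance. Between 2 and 5 kb the order turned, with 1.27 and 1.12 for 109 coding sites against 1.36 and 1.29. The 37 coding sites beyond 20 kb had medians of 1.07 and 0.946, against 1.09 and 1.05.

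Taken over all sites, coding sites were slightly wider. Their peaks had a median width of 180 bases in replicate 1 and 200 bases in replicate 2, against 172 and 188 for intronic sites, and the mean ratio was 1.06 ± 0.012 (SD, n = 2). Within classes of GC the peak widths were closer. Medians were 164 and 181 against 164 and 182 at 45 to 55%, and 180 and 200 in both kinds at 55 to 65%. Over 65% they were 240 and 220 against 220 and 220, and up to 45% 145 and 171 against 154 and 175. Merged coding sites had a median width of 216.5 bases against 200 for intronic sites, and the widest, at Tchh, had 1766.

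Footprints were present in most coding sites, but less often than in introns. A footprint lay in 92.3% of coding sites in replicate 1 (89.0 to 94.9) and 92.6% in replicate 2 (89.4 to 95.1), against 95.6% and 96.6% of intronic sites. The difference was -3.63 ± 0.56 percentage points (SD, n = 2). It was widest among the low sites. In height ranks 0 to 25 of all shared sites 81.5% and 80.7% of 119 coding sites had a footprint, against 89.8% and 92.1% of intronic sites, and among ranks 25 to 50 the shares were 95.9% and 97.5% against 98.4% and 98.7%. Against the intronic sites of the same genes the difference was 0.337 points. In sites above the median height of all shared sites it was 0.208 points. Both values were smaller than the SD of 0.56, so neither shows a difference in either direction. In ranks 50 to 75, 100% of coding sites in each library had a footprint, against 99.6% and 99.9% of intronic sites. The comparison among high sites thus had little room to differ.

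At the other end, sites with many footprints were more common in coding sequence. Coding sites with 5 or more footprints made up 12.2% (8.98 to 16.1) in replicate 1 and 14.2% (10.7 to 18.3) in replicate 2, against 5.57% and 6.95% of intronic sites. Per kb of merged site coding sites held fewer footprints, 9.72 and 10.1 against 10.8 and 11.3. The median was 2 footprints per site in each library for both kinds. Of the footprint bases in coding sites, 84.1% and 82.6% were in CDS. No footprint of either library was found in 4.26% of coding sites and 1.08% of intronic sites.

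**Figure D2:**
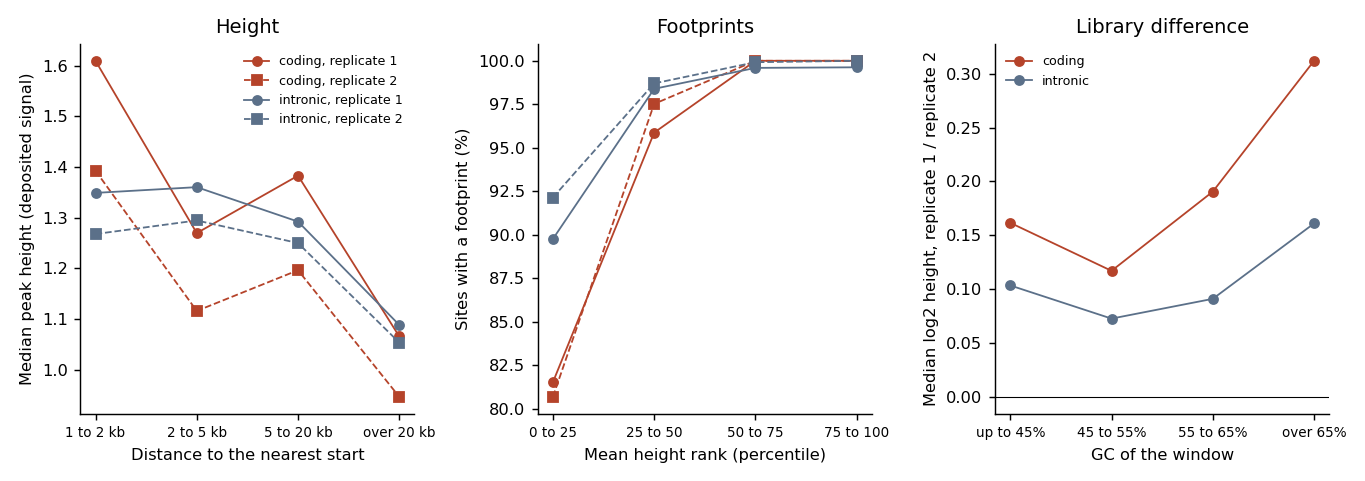
Median peak height (deposited signal) by distance to the nearest start, share of sites with a footprint (%) by mean height rank, and median log2 height ratio of replicate 1 to replicate 2 by GC of the window, for coding (red) and intronic (blue) sites. The vertical axes of the left and middle panels do not start at 0. The gap in footprint share is widest among sites of rank 0 to 25, where coding sites stand at 81.5% and 80.7%.

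Last coding exons were over-represented by length. The exon class was read in the transcript with the longest CDS among those holding the midpoint. Last coding exons held 124 coding sites, or 35.2% (30.2 to 40.5), while they make up 18.6% of CDS bases away from starts, giving 28.2 sites per Mb. Only coding exons, where the transcript read has 1 coding exon, held 35 sites, or 32.1 per Mb. Internal coding exons held 178 sites, 50.6% of the total, on 72.8% of the bases, or 10.4 per Mb. First coding exons held 15 sites, or 15.8 per Mb with an interval of 8.93 to 25.8.

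Exons that held a site were longer than the average. The median coding exon with a site had 243 coding bases, against a base-weighted median of 185 over all CDS away from starts. Density rose from 10.02 sites per Mb in exons of up to 150 coding bases to 15.3 in those over 150 and up to 300 and 23.9 in those over 300 and up to 1000, and was 16.2 in longer exons. Exon classes also differed in base composition, with a median GC of 63.75% at sites in last exons and 57% at sites in internal exons. Median distance to a start was 1473 bases at sites in only exons, 1986 in first, 3873 in last and 5059.5 in internal ones. The part of GC, of exon length and of distance in the exon class densities was not tested.

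**Figure D3:**
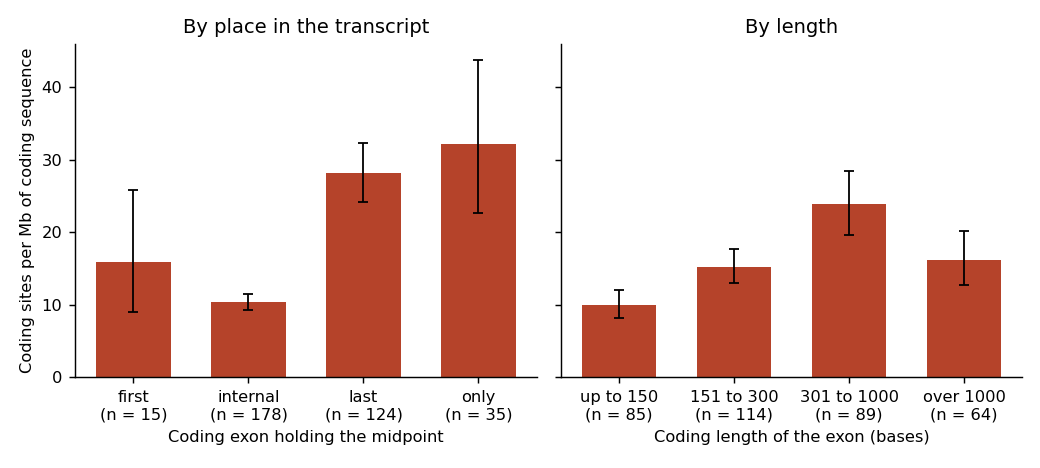
Coding sites per Mb of coding sequence more than 1000 bases from any start, by the place of the coding exon in its transcript and by its coding length. Bars show the density, error bars the exact 95% binomial interval of the share of sites, and n the number of sites. Last exons (28.2 per Mb) and only exons (32.1) stand above internal exons (10.4).

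Many coding sites spill over the exon edge. The whole site was coding in 36.4% of cases, and the median site had 83.4% of its bases in CDS. In 44.6% the merged site was longer than the coding part of its exon. The strongest stretch, taken as the lowest FDR that the authors deposited inside the site, lay in CDS at 90.9% of coding sites in replicate 1 and 91.8% in replicate 2. In 49.4% the midpoint was coding in every coding transcript of the gene.

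Coding sites were richer in GC and in CpG than intronic sites, as CDS was richer than introns. The median GC of the 200 bases around the midpoint was 60% in coding sites and 52.5% in intronic sites, while all CDS windows had a median of 50% and all intron windows 42.5%. The median ratio of observed to expected CpG was 0.550 in coding sites, 0.248 in intronic sites, 0.322 in all CDS windows and 0.154 in all intron windows. A window was called CpG-rich at a GC of at least 50% and a CpG ratio of at least 0.6. By that rule 154 coding sites, or 43.8% (38.5 to 49.1), were CpG-rich, against 5.35% of intronic sites, 6.76% of all CDS windows and 0.425% of all intron windows. The CpG-rich share of coding sites was 6.47 times that of CDS windows, and that of intronic sites 12.6 times that of intron windows.

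Within each class of base composition the gap in density between coding sequence and introns was smaller than over all windows. CpG-rich windows held 95.0 coding sites per Mb of CDS and 81.8 intronic sites per Mb of intron, a ratio of 1.16. The other windows held 8.85 and 6.19, a ratio of 1.43, while the ratio over all windows was 2.26. The Mb of each class were estimated from windows spaced 100 bases apart in CDS and 5000 bases apart in introns.

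CpG-rich coding sites differed from the other 198 in several ways. They were higher, with median heights of 1.55 and 1.25 against 1.28 and 1.15, and broader, with a median merged width of 250 against 200 bases. They held a footprint less often, in 89.0% of sites in each library against 94.9% and 95.5%, yet held more footprints per site, 3.05 and 3.21 against 2.21 and 2.27. Of the CpG-rich sites 71 lay in last coding exons, 47 in internal, 26 in only and 10 in first ones, while the others had 53, 131, 9 and 5.

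**Figure D4:**
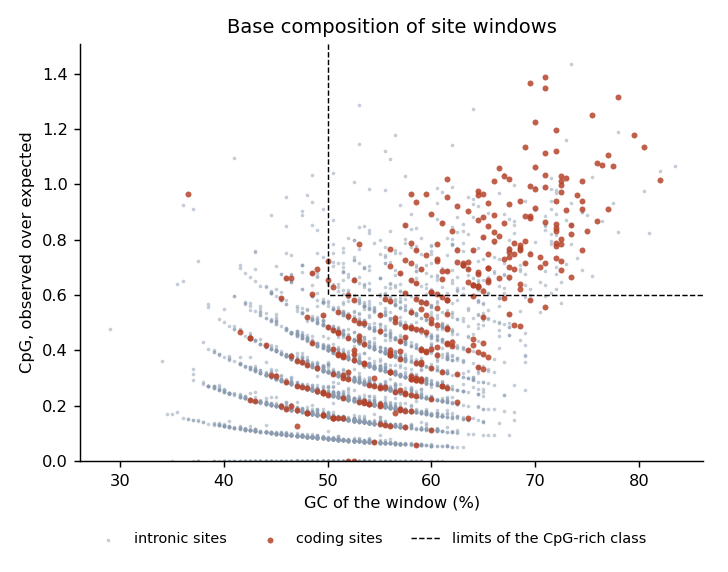
GC (%) and ratio of observed to expected CpG in the 200 bases around the midpoint, for coding (red) and intronic (grey) sites, with the limits of the CpG-rich class dashed. Of the coding sites 43.8% lie in the upper right area, against 5.35% of the intronic sites. The curved bands arise because the number of CpG in a window is whole.

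Motif matches differed in frequency between coding and intronic sites. The CTCF pattern, searched on both strands like every motif here, was in 10.2% of coding sites (7.27 to 13.9) and 14.99% of intronic sites, against 0.420% of all CDS windows and 0.181% of all intron windows of the same length. Among CpG-rich windows the order turned, with 7.14% (3.62 to 12.4) of coding sites and 2.78% (1.21 to 5.4) of intronic sites, while among the others the shares were 12.6% and 15.7%. The match inside coding sites was touched by a footprint of both libraries at 33 of 36 sites, or 91.7% (77.5 to 98.2), and at 91.6% of 806 intronic sites. A match describes the letters and is not a measurement of binding.

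The GC box GGGCGG, the letters bound by SP and KLF factors, was in 21.6% of coding sites (17.4 to 26.3). It was in 11.5% of intronic sites, 5.20% of all CDS windows and 1.82% of all intron windows. Among CpG-rich windows the shares were 35.1% of coding sites, 43.8% of intronic sites, 17.6% of all CDS windows and 17.4% of all intron windows. A GC box can overlap a CTCF match. Footprints of both libraries touched the box at 23 of 75 coding sites, or 30.7% (20.5 to 42.4), and at 40.2% of 602 intronic sites.

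AP-1 letters, TGANTCA, were less frequent in coding sites than in intronic ones. They were in 5.97% of coding sites (3.73 to 8.98) and 13.9% of intronic sites, against 4.66% of all CDS windows and 6.04% of all intron windows. Among windows that were not CpG-rich the shares were 9.09% (5.48 to 13.99) and 14.3%, against 4.84% of CDS windows and 6.05% of intron windows. Among CpG-rich windows they were 1.95% and 6.94%, against 2.22% of CDS windows and 3.99% of intron windows. Few AP-1 matches were touched by a footprint of both libraries, 3 of 19 in coding sites and 13.0% of 709 in intronic sites. The E-box CAGCTG was in 22.7% of coding and 18.3% of intronic sites, with 15.3% of all CDS windows and 8.10% of all intron windows.

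**Figure D5:**
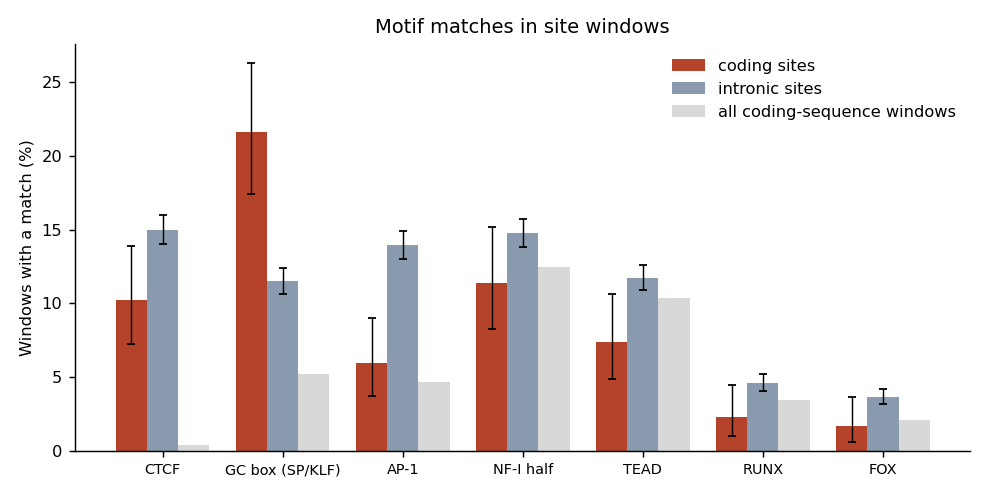
Share of 200-base windows (%) with a match to 7 motif patterns in coding sites (red), intronic sites (blue-grey) and all coding-sequence windows away from starts (light grey). Error bars are exact 95% binomial intervals. CTCF matches stand at 10.2% of coding sites and 0.420% of all coding windows, and AP-1 matches at 5.97% and 4.66%.

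Apart from 1 site in a repeat, the highest coding sites were in genes of varied function. Gm11168, on chr9:3006800-3006920, had heights of 6.24 and 7.36 in replicates 1 and 2. All of its bases are softmasked as repeats in the assembly, the only coding site with 50% or more, and 81.3% of its 8-base words were distinct, against a median of 99.5%. Whether reads from other copies of the repeat add to its height and footprints was not tested. Angptl6, which encodes a secreted angiopoietin-like protein, had 6.59 and 6.29 at chr9:20878141-20878500, and Spi1, which encodes the myeloid and B cell factor PU.1, had 6.25 and 4.55 at chr2:91115161-91115320 in its last coding exon. In replicate 1 these 3 sites stood above all other coding sites, and in replicate 2 Rsad1, at 4.69, stood above Spi1. Next by mean rank was Unc13a, which encodes a protein that primes synaptic vesicles, at 4.75 and 4.15.

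Of the 15 highest sites, 3 lie at or near a start in another annotation. RefSeq places a transcript start inside the site at Unc13a and at Psmc2, a proteasome ATPase subunit with heights of 3.71 and 4.12, and 79 bases from the edge at Angptl6. Among all coding sites 8.24% (5.59 to 11.6) lay within 1000 bases of a RefSeq start, against 5.01% of intronic sites, and 2.56% lay as close to a curated one, against 0.557%. Of the 15 highest sites, 13 were CpG-rich, 7 were in a last or only coding exon, 8 were whole in CDS and 10 lay within 2000 bases of a GENCODE start.

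The rest of the 15 ran down to mean percentiles near 80. Scnn1a, the alpha subunit of the epithelial sodium channel, had heights of 3.68 and 4.10 at rank 2 of its 12 coding exons, at chr6:125331061-125331260, 9540 bases from a start. Hey1, a repressor downstream of Notch, had 3.33 and 3.0 at chr3:8664621-8664800. Klf1, an erythroid zinc finger factor, had 3.25 and 2.94 with 8 and 5 footprints. Rsad1, Fbxl22, Zfp771, Ccdc194, Rimbp3, Rin2 and Rasip1 complete the set, with heights between 3.07 and 4.36 in replicate 1 and between 2.79 and 4.69 in replicate 2. The lowest were Cdh20 at 0.499 and 0.420, Tmem229a at 0.465 and 0.438 and Ntng1 at 0.499 and 0.366.

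The 5 widest sites held between 4 and 14 footprints in a library. B430305J03Rik, at chr3:61363581-61364740, was 1160 bases wide with 10 and 14 footprints, and RefSeq places a curated start inside it. Btd, which encodes biotinidase, was 1007 bases wide with 11 and 8 footprints, and only 25.4% of it was coding. C1qtnf4 was 1020 bases wide with 8 and 7 footprints, at heights of 1.53 and 0.938. Klhl31 was 1002 bases wide with 8 and 4, at 0.896 and 0.563. The widest site, at Tchh, held 6 and 9. Among the sites with most footprints, Fjx1, 900 bases wide, had 6 and 11, Zfp771, 340 bases wide, had 7 and 10, and another Tchh site, 400 bases wide, had 8 and 8.

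Tchh and Zfp503 show how a long exon splits into several sites. The 5 Tchh sites share the 4659-base last coding exon, with heights of 0.692 to 1.38 in replicate 1 and 0.321 to 1.05 in replicate 2. The widest of them had 67.9% distinct 8-base words, the lowest share of any coding site. The 3 Zfp503 sites share the 1626-base last coding exon, and the highest, at 2.70 and 2.41, held 3 and 2 footprints while the other two held none.

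Genes of the urothelium were among those with a coding site. As a check of the tissue, a shared site lay at a start of 17 of 29 urothelium, 9 of 21 smooth muscle, 4 of 12 fibroblast and 3 of 12 endothelium markers. It did so for 2 of 14 neuron and 0 of 13 hepatocyte markers. None of these shares is above the 61.8% of genes that could hold a coding site. These cell type markers thus do not stand above all genes by this measure. Other lists did, with 17 of 17 junction, 16 of 18 immediate early and 13 of 16 matrix genes. Of 27 urothelium genes that could hold a coding site, 3 did, or 11.1% beside the 1.84% of all genes. An intronic site was in 11.1% of them, below the 19.0% of all genes that could hold a coding site. The coding share was also above 1.84% in the fibroblast (8.33%), hepatocyte (7.69%) and immediate early (6.67%) lists, each with 1 gene. The smooth muscle, endothelium, junction and neuron lists held none. In lists of this size 1 gene is enough to exceed the background. Elf3, an epithelial ETS factor, had heights of 2.91 and 1.95 at rank 4 of its 8 coding exons, 1049 bases from a start. Pparg, a nuclear receptor of urothelial differentiation, had 2.00 and 2.46 with 5 and 4 footprints in an exon of 200 bases. Foxa1, a pioneer factor, had 1.05 and 0.973 in its last coding exon, with 0 and 4 footprints. The lists were made with earlier results in view, and so the shares describe them only.

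Matrix genes with a coding site included Itgb4 and Col4a2, both in internal exons. Itgb4, the integrin chain of hemidesmosomes, had heights of 1.6 and 1.5. Col4a2, a basement membrane collagen, had 1.42 and 1.12 with a CTCF match. Fn1, fibronectin, was the 1 of 12 fibroblast genes with a coding site, at 0.873 and 0.571. Klf4, an immediate early and epithelial zinc finger factor, was 1 of 15, at 2.37 and 2.00 over 520 bases, 1030 bases from a start. Apoa1 was 1 of 13 hepatocyte genes. No coding site was found in 21 smooth muscle, 12 endothelium, 17 junction or 14 neuron genes, and lists of this size can hold 0 at a background of 1.84%. An intronic site was in 7, 4, 11 and 5 of these genes, beside 19.0% of all genes that could hold a coding site. Among families, 8 of 396 Zfp and Zscan zinc finger genes (2.02%) and 6 of 354 Slc genes (1.69%) held one, close to the 1.84% of all genes. The counts were 2 of 51 Krt, 0 of 66 Pcdh and 0 of 31 Hox genes.

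Replicate 1 stood higher against replicate 2 at coding sites than at intronic ones. The median log2 ratio of replicate 1 to replicate 2 height was 0.23 in coding sites and 0.08 in intronic sites. It was 0.12, 0.19 and 0.31 in coding sites with a GC of 45 to 55%, 55 to 65% and over 65%, and 0.07, 0.09 and 0.16 in intronic sites of those classes, so that it was higher in coding sites within each of these 3 classes. Across coding sites the heights of the 2 libraries had a Spearman correlation of 0.878 (n = 352), against 0.838 in 5385 intronic sites. Both come from the same pair of libraries, and sites share base composition.

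Sites of 1 library show the same direction. Coding sites made up 4.67% (3.85 to 5.6) of the sites away from starts found in replicate 1 only, 1.80% (1.55 to 2.08) of those in replicate 2 only and 2.55% of the shared ones. Of all 640 coding sites found in either library 55% were in both, 17.2% in replicate 1 only and 27.8% in replicate 2 only, against 50.6%, 9.16% and 40.2% of 10634 intronic sites. Replicate 1 had 37692 autosomal peaks and replicate 2 had 46471. Whether GC moves the libraries' heights apart was not tested.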

How the data were processed

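DNase-seq of urinary bladder was analysed in 2 libraries of 1 group, from the separate animals that the labels number. The peak heights are a signal that the authors deposited per library. The authors also deposited footprints, each with the p-value-like limit 0.01, and FDR values, which are adjusted p-values of short stretches. Alignment was to mm10, per the labels, and neither the aligner nor any caller is named there (not given in the sources used here). Low heights were whole multiples of 0.0113 in replicate 1 and 0.00893 in replicate 2 (within 0.05 of a step), so heights look like scaled counts, but the absolute depth is unknown.

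The shorter of the 2 deposited peak lists of each library was used. Sites took the highest peak of each library, and the distance ran from the nearer edge to the nearest of the GENCODE M21 transcript starts on 19 autosomes. Sequence came from GRCm38 patch 6 and repeats from its softmasking. Footprints counted when they shared a base with a site. Background windows of 200 bases numbered 239619 in CDS and 164990 in introns. No test was run, because there is 1 group and sites are not replicates. The coding sites, gene lists and motifs were chosen with earlier results of these data known. Genes named are the 15 highest and 3 lowest sites by mean height rank, the 5 with most footprints, the 5 widest, genes with 3 or more sites, and every site in the urothelium, smooth muscle, fibroblast, endothelium, junction, matrix and immediate early lists, except an item that is not reported here. The steps were tested on simulated data. Alternatives are the longer peak list, other distances, placements and overlaps, higher sites, each library alone, intronic sites of the same genes, and families left out. Another 3, leaving out repeats or RefSeq starts and weighting by distance, were chosen after seeing the data, as was the spread used for densities and GC, the SD between each library alone. Python 3.11.15, pandas 2.3.3, numpy 2.4.6, scipy 1.17.1 and pysam 0.24.0 were used.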

Additional observations from a re-analysis of the deposited data

How the results depend on the processing

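The ratio of coding to intronic site density stayed between 1.94 and 2.72 under its 10 alternatives, and the ratio of median height between 1.00 and 1.11 under its 13, each within the spread between libraries. For the density ratio, the values with each library alone also set that spread, so their place within it was nearly fixed beforehand. The number of coding sites was 637 with the longer peak list, 150 at 5000 bases from starts, 95 in the upper part of heights, and between 493 and 547 with each library alone. The footprint difference, -3.63 points, was -0.894 with the longer list, -5.86 at 500 bases, -0.189 at 5000 bases, -2.26 with reciprocal overlap, 0.208 in the upper part of heights, 0.337 against intronic sites of the same genes, and between -6.68 and -5.20 with each library alone. The width ratio was 1.09 at 500 bases, 1.04 in the upper part of heights and between 1.02 and 1.12 with each library alone. The share in last exons was 30.1% with the longer list. The GC ratio, 1.14, was 1.13 with the longer list, 1.16 at 500 bases, 1.12 at 5000 bases, 1.15 with 50% of the site in CDS, 1.12 with reciprocal overlap, 1.12 in the same genes, 1.13 without RefSeq starts, 1.13 weighted by distance and between 1.13 and 1.14 with each library alone. The cause of these shifts was not tested, beyond the smaller number of sites that stricter rules leave. The density ratio against introns of the same genes, and without sites near RefSeq starts, was not run. No paired analysis was possible because there is 1 group. The depth is unknown, so faint sites cannot be bounded, and 2 libraries limit each SD.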
